A study of Mus musculus with 10 samples.

Results

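The Wnt pathway genes described here are the numbered Wnt, Frizzled, Dkk, Sfrp and R-spondin genes together with Lrp5, Lrp6, Axin1, Axin2, the TCF/LEF factors, Nkd1, Nkd2, Notum, Sp5, Rnf43, Znrf3, Lgr4, Lgr5, Lgr6, Apcdd1, Ctnnb1 and Wif1. They were taken by symbol from the protein-coding genes of the deposited files, leaving out Rspo3, Wnt2 and Wnt9b, which gave 58 genes of 21897. RNA was sequenced from mouse hepatic endothelial cells in 5 libraries labelled Alk1-HEC-KO (genotype KO) and 5 labelled Control (genotype WT). For both groups, a Nycodenz gradient gave the non-parenchymal liver cells, from which magnetic beads to CD146 (the product of Mcam) took the endothelial cells. ALK1, encoded by Acvrl1, is an endothelial receptor of the BMP branch of the TGF-beta family. The sources used here do not give the promoter that drove the deletion, the deleted exons, any treatment, the age of the mice, pooling of animals or batches of libraries. No label ties a library to an animal of its own, so p-values measure only how these samples spread, and that spread may be technical.

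Wnt ligands bind a Frizzled receptor together with LRP5 or LRP6, which halts the destruction of beta-catenin so that it enters the nucleus and works with TCF/LEF factors. The pathway turns on many of its own brakes, among them Axin2, Nkd1, Notum, Apcdd1, Rnf43 and Znrf3, and the last pair removes Frizzled receptors from the surface unless an R-spondin bound to an LGR receptor disables them. In the liver, endothelial cells around the central vein are a known source of Wnt ligands and R-spondin for the neighbouring hepatocytes.

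The gene that the labels name as targeted was measured first, because it checks them. Acvrl1 stood at 114 to 136 CPM (estimated counts scaled to the library total with TMM factors) in the controls and at 239 to 258 CPM in the libraries labelled Alk1-HEC-KO. The means of 127 ± 8.73 and 248 ± 6.94 CPM (SD, n = 5 each) differed 1.95-fold in the direction opposite to a loss of the transcript (log2 fold change 0.96 ± 0.05 SE, edgeR adjusted p = 1.7e-07). Counts per gene do not resolve exons, so this value does not settle what the label means at the RNA level, and every direction below is between the libraries as labelled.

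The libraries were nearly equal in depth, with 23489494 to 23602771 estimated counts each. Mitochondrial transcripts made up 4.27 to 6.43% of the counts in controls and 3.45 to 4.32% in the knockout-labelled libraries. Of 8 general endothelial markers (Pecam1, Cdh5, Tek, Kdr, Mcam, Erg, Emcn, Tie1) none was at 0, and their summed level was 9200 to 10500 CPM in controls and 9760 to 10300 CPM in the knockout-labelled libraries. Singly they moved in both directions: Pecam1, Mcam, Emcn and Tie1 rose and Tek and Kdr fell. Mcam, the target of the beads, was at 276 to 386 CPM in controls and 483 to 580 CPM in the knockout-labelled libraries, a 1.64-fold rise (log2 fold change 0.71 ± 0.09 SE, edgeR adjusted p = 0.00011), and its part in the values below was not tested. The summed level of 8 sinusoidal endothelial markers did not overlap between the groups, at 17200 to 19400 CPM in controls and 12000 to 13300 CPM in the knockout-labelled libraries, and 7 of them fell. Markers of other cells were present in all libraries. The 15 hepatocyte markers summed to 693 to 2320 CPM in controls and 715 to 1520 CPM in the knockout-labelled libraries. Apoa2 and Apob fell (adjusted p = 0.037 and 0.039), the other 13 did not pass, and the median log2 fold change of the list was -1.1; Alb, the most abundant, had means of 471 and 447 CPM. The 12 stellate cell and fibroblast markers summed to 123 to 222 CPM in controls and 211 to 287 CPM in the knockout-labelled libraries. Col1a1, Col1a2 and Col3a1, which encode fibrillar collagens, rose 3.06-, 2.73- and 2.34-fold, and the other 9 did not pass. The 8 Kupffer cell markers summed to 441 to 1390 and 404 to 1020 CPM, and none passed. The 7 bile duct markers summed to 183 to 264 CPM in controls and 361 to 617 CPM in the knockout-labelled libraries. Of the 6 tested, 5 rose (Krt19, Epcam, Sox9, Spp1 and Cldn7). Spp1 alone was at 161 to 235 CPM in controls and 327 to 565 CPM in the knockout-labelled libraries. In bulk RNA, fewer cells of a type and less RNA per cell cannot be told apart.

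Sequence upstream of 4 of the genes is given because it holds the letters of a DNA motif of the Wnt pathway or of the BMP pathway. Windows of 300 bases, from 250 before to 50 after a transcription start, came from RefSeq (GRCm38.p6) and covered 38 of the 58 genes. The core letters bound by TCF/LEF factors were searched as CTTTGAT or as CTTTGAA, and further as CTTTGTT or as CTTTGTA, on both strands, and the SMAD1/5 letters as GGCGCC, which reads the same on both strands. No match overlapped another in the 4 windows shown. Only the 250 bases before the start are printed, 5′ to 3′ on the plus strand, with matches in capitals. Sp5, an early transcriptional target of the pathway, and Fzd7 held TCF/LEF letters, 222 and 104 bases before the start of Sp5 and 130 bases before that of Fzd7 (AACAAAG is CTTTGTT read on the other strand). Fzd4 held GGCGCC 175 bases before its start, and Wnt9a held it 118 and 65 bases before. The windows lie at chr2:70474673-70474922 (Sp5), chr1:59481897-59482146 (Fzd7), chr7:89404116-89404365 (Fzd4) and chr11:59306680-59306929 (Wnt9a).
Sp5: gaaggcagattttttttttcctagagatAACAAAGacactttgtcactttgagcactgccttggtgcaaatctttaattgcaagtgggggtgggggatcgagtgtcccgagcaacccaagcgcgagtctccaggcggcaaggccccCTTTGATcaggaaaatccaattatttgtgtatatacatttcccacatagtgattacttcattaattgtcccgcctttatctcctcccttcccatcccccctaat
Fzd7: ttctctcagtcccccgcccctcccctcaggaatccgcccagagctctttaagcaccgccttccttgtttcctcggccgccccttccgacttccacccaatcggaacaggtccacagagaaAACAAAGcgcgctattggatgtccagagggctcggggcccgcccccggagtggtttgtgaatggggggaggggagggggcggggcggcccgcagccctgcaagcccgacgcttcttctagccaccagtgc
Fzd4: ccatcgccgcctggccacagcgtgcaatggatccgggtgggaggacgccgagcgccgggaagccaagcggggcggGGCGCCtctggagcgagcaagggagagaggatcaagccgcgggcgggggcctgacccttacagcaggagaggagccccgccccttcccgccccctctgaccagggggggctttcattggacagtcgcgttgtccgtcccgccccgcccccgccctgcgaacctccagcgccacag
Wnt9a: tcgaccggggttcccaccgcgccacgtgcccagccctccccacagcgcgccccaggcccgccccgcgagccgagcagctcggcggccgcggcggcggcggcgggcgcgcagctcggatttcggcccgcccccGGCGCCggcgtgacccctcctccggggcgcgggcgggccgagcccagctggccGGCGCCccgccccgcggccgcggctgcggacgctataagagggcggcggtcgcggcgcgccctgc

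TCF/LEF letters stood in the 300-base windows of 8 of the 38 genes (21.1%), beside 16.8% of 17491 protein-coding genes. Of the 8 genes in the table that differed between the groups, 1 held them (12.5%). GGCGCC stood in 15 of the 38 genes (39.5%) and in 4 of the 8 that differed (50%), beside 17.3% of all genes and 47.6% of the 21 tested pathway genes in the table. The median GC content of the windows was 66.5% for these genes and 56.3% for all, and the part of base composition in these shares was not tested. A match is a description of the letters and not a binding site.

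Of the 58 genes, 35 had enough counts to be tested, and 13 of these differed between the groups at an adjusted p under 0.05. Over all 15043 genes tested 19.7% differed, 10.6% higher under the knockout label and 9.08% lower. Among the 35, 6 were higher (17.1%): the ligands Wnt4 and Wnt9a, the receptor Fzd4, the antagonists Dkk2 and Apcdd1, and Ctnnb1, which encodes beta-catenin. A further 7 were lower (20%): the receptors Fzd6, Fzd7 and Fzd8, the co-receptor Lrp5, and Dkk3, Rnf43 and Nkd1. The CPM values of the groups did not overlap for 11 of the 35 (31.4%), beside 15.5% of all genes tested. The median log2 fold change was -0.01 over the 35 and 0 over all genes. Genes entered the test by a minimum of counts that either group could meet, so the 35 are not a sample of the 58. Of the 13, 7 (Fzd7, Lrp5, Dkk2, Dkk3, Apcdd1, Ctnnb1 and Nkd1) differed in each of 19 other fits, which do not include the one described next.

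Markers of pericentral hepatocytes, the cells next to the central vein, moved with the groups. Of 8 tested, 6 fell (Cyp2e1, Cyp1a2, Oat, Slc1a2, Gulo and Cyp3a11) and 1 rose (Glul), and the mean log2 CPM of the list was 4.19 to 6.37 in controls and 2.82 to 3.58 in the knockout-labelled libraries. With that score as a covariate, a fit added after the data were seen, 338 genes of all tested differed, and of the 13 only Dkk3 did (log2 fold change -1.78, adjusted p = 0.014). The others kept their direction. The log2 fold changes of Lrp5 (-0.62, edgeR adjusted p = 0.052), Fzd7 (-0.86) and Rnf43 (-1.49) were no smaller than without the score. Those of Ctnnb1 (0.08), Dkk2 (0.93) and Fzd8 (-0.12) were smaller. The score does not overlap between the groups, so in that fit it and the genotype label can scarcely be told apart. Markers of periportal hepatocytes, the cells around the portal vein, did not fall likewise: none of 7 passed, and their median log2 fold change was 0.71. They summed to 91.3 to 144 CPM in controls and 107 to 352 CPM in the knockout-labelled libraries. The part of hepatocyte RNA in the values below was not tested beyond the fits with the pericentral score and with a general hepatocyte score.

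**Figure D1:**
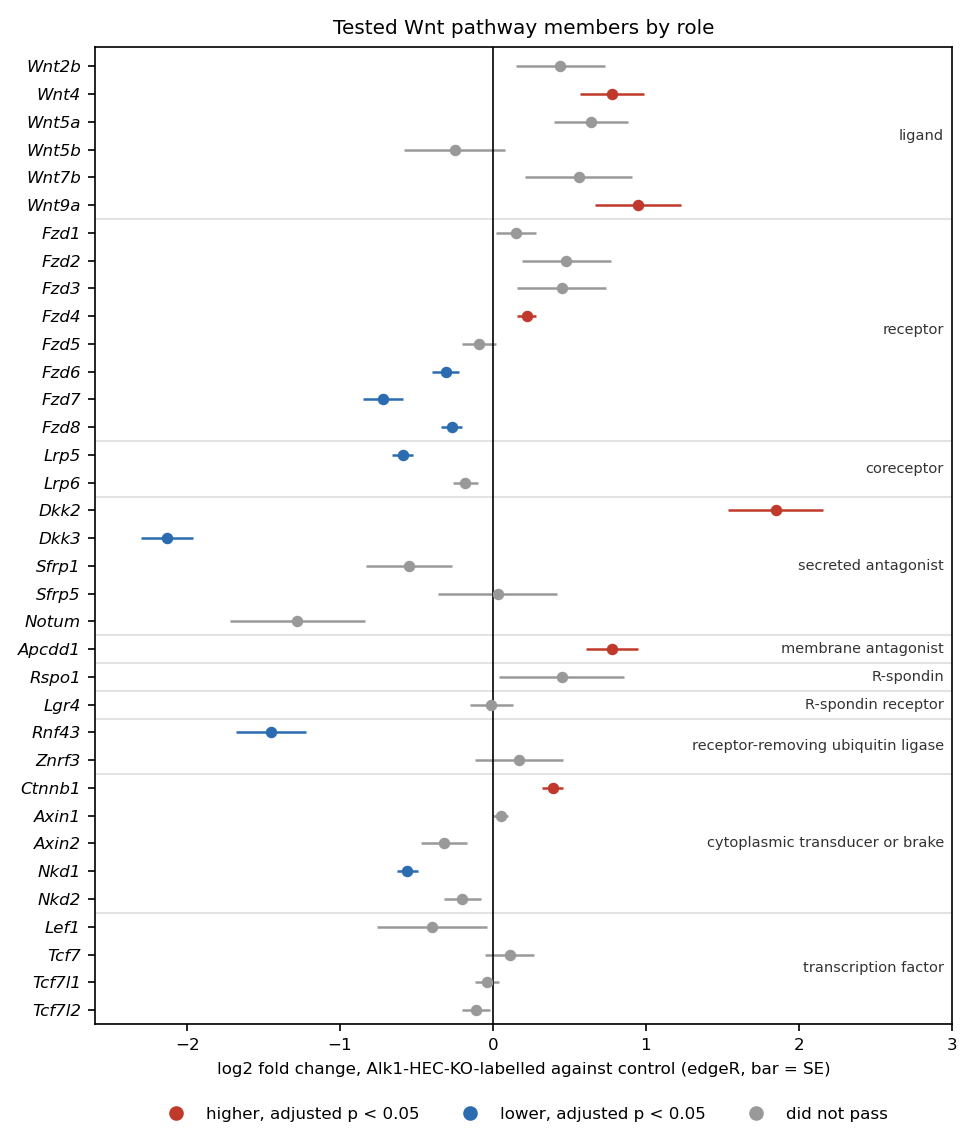
Log2 fold change (libraries labelled Alk1-HEC-KO against controls, edgeR, bars are SE) of the 35 tested Wnt pathway genes, ordered by role. Red points are the 6 higher genes and blue points the 7 lower genes; Dkk2 at 1.85 and Dkk3 at -2.13 lie at the ends.

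Wnt ligands other than Wnt2 and Wnt9b were scarce. Of 17, 6 could be tested: Wnt4 and Wnt9a were higher, and Wnt2b, Wnt5a, Wnt5b and Wnt7b did not pass. Wnt4, a ligand mostly linked to signalling that does not use beta-catenin, was measured at 1.36, 2.83, 2.28, 2.41 and 2.8 CPM in controls 1 to 5. The knockout-labelled libraries 1 to 5 held 3.24, 3.39, 5.42, 3.86 and 4.12 CPM, each above every control. The rise was 1.71-fold (log2 fold change 0.78 ± 0.21 SE, edgeR adjusted p = 0.022). Its call was lost with a hepatocyte score as covariate (adjusted p = 0.091), with a T and NK cell score (adjusted p = 0.11) and when knockout-labelled library 3 was left out (adjusted p = 0.062).

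Wnt9a, a close relative of Wnt9b, was at 0.799, 2.23, 1.05, 0.9 and 0.982 CPM in the controls. It was at 2.39, 3, 2.28, 1.68 and 2.22 CPM in the knockout-labelled libraries. Control 2 lay above the lower 2 of those, so the groups overlapped. The means rose 1.94-fold, from 1.19 ± 0.588 to 2.31 ± 0.471 CPM (SD, n = 5 each; log2 fold change 0.95 ± 0.28 SE, edgeR adjusted p = 0.031). Without control 2 the log2 fold change was 1.31 (adjusted p = 0.0013). The call was lost without any 1 of 8 other libraries, with adjusted p-values of 0.053 to 0.079.

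The other 4 tested ligands lay near or under 1 TPM. Wnt5a, the classical ligand of polarity and calcium signalling, had a mean of 0.78 CPM in controls and 1.21 CPM in the knockout-labelled libraries (log2 fold change 0.64 ± 0.24 SE, adjusted p = 0.083). Wnt2b, the relative of Wnt2, had means of 1.33 and 1.8 CPM (adjusted p = 0.34), and Wnt7b had 0.559 and 0.828 CPM (adjusted p = 0.3). Wnt5b, with means of 0.46 and 0.385 CPM (adjusted p = 0.65), overlaps the far more abundant Fbxl14 on the other strand, and since the strand setting of the reads is not given its value is uncertain. Knockout-labelled library 5 held the highest value of Wnt2b (3.05 CPM), Wnt5a (1.71 CPM) and Wnt7b (1 CPM). The same library had the highest summed level of 5 mesothelial markers, 67.7 CPM against 14.8 to 48.9 CPM in the other 9 libraries, and the part of mesothelial cells in these values was not tested.

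Summed in the deposited TPM (which allows for transcript length), the 17 ligands gave 3.3, 4.63, 2.93, 2.88 and 3.31 in the controls and 4.69, 5.53, 6.07, 4.4 and 8.39 in the knockout-labelled libraries. Wnt2 and Wnt9b, both central vein ligands, together gave 339, 368, 272, 339 and 299 TPM in the controls. They gave 99.1, 54.2, 112, 59.4 and 71.3 TPM in the knockout-labelled libraries. The 17 other ligands therefore made up 1.04% ± 0.151 of all Wnt ligand TPM in controls and 7.27% ± 2.59 in the knockout-labelled libraries (SD, n = 5 each), with no overlap. In TPM the gain of the 17 was from 3.41 ± 0.711 to 5.82 ± 1.59 and the drop of the other pair from 323 ± 37.6 to 79.2 ± 25.3. Control 2 (4.63 TPM) lay above the lowest knockout-labelled library (4.4 TPM) in the summed ligands, and these sums were not put to a test. Few counts and the transcript length assigned in each library weigh on the sum of the 17 and on its share. In knockout-labelled library 5, Wnt11 with 12 counts gave 0.921 of the 8.39 TPM. Wnt5a was at 0.757 CPM in control 1 and 0.72 CPM in control 4, but at 0.702 and 0.182 TPM.

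**Figure D2:**
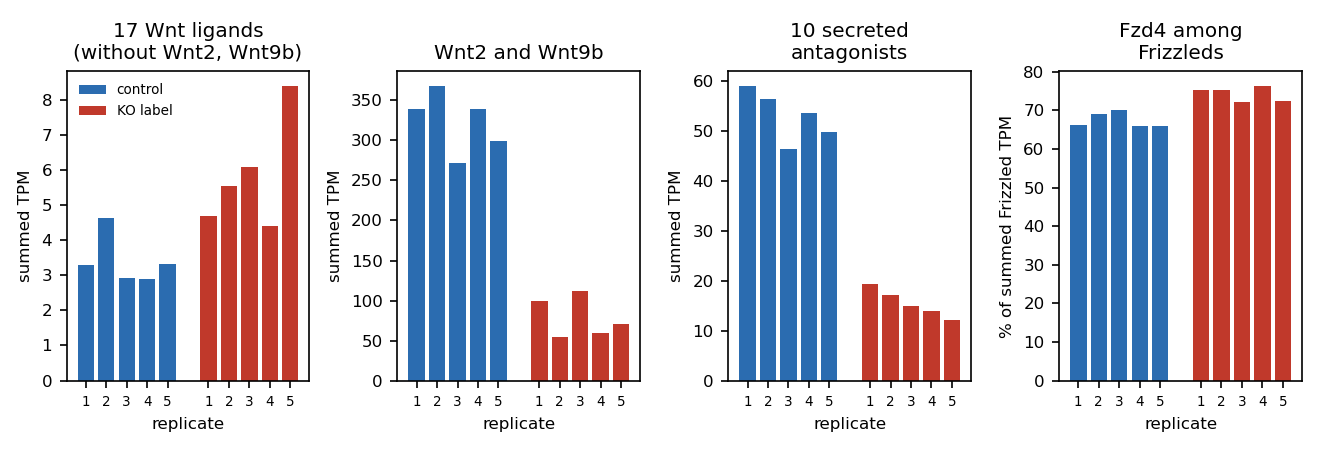
Sums per library of deposited TPM for the 17 Wnt ligands, for Wnt2 with Wnt9b and for the 10 secreted antagonists, and the percent of Frizzled TPM that came from Fzd4; each bar is 1 library, blue for controls and red for the Alk1-HEC-KO label. Wnt2 with Wnt9b and the antagonists fall without overlap, from means of 323 and 53 TPM to 79.2 and 15.5 TPM. The antagonist sum is mostly Dkk3 (93.5% in controls and 77.4% under the Alk1-HEC-KO label), which by itself went from 49.6 to 12.1 TPM.

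Frizzled receptors were dominated by Fzd4, the receptor that blood vessels of the eye and brain use. Fzd4 was measured at 335, 340, 325, 335 and 323 CPM in the controls and at 387, 382, 369, 442 and 352 CPM in the knockout-labelled libraries. All 5 of the latter lay above all controls, and the rise was 1.17-fold (log2 fold change 0.22 ± 0.06 SE, edgeR adjusted p = 0.022). With a T and NK cell score as covariate its adjusted p was 0.086. On the TPM scale Fzd4 rose from 77.9 ± 5.47 to 96.9 ± 6.38 (SD, n = 5 each), and its share of the summed Frizzled TPM from 67.4% ± 2.01 to 74.3% ± 1.87, again without overlap.

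The 3 receptors that fell were Fzd6, Fzd7 and Fzd8. Fzd7, often found in progenitor cells, stood at 8.49, 6.69, 6.59, 7.2 and 7.09 CPM in the controls and at 5.04, 3.78, 5.2, 3.62 and 4.18 CPM in the knockout-labelled libraries, without overlap. It fell 1.65-fold (log2 fold change -0.72 ± 0.13 SE, edgeR adjusted p = 0.002). Fzd8, a receptor known to pair with LRP5 and LRP6, stood at 49.6, 46.8, 43.9, 51.9 and 45.9 CPM in the controls. Its values in the knockout-labelled libraries were 40.8, 36.2, 42.7, 41.5 and 36.7 CPM, all below the controls. This 1.2-fold fall passed (log2 fold change -0.27 ± 0.07 SE, edgeR adjusted p = 0.013), but not on log2(TPM + 1) with limma (adjusted p = 0.22) or with a hepatocyte score as covariate (adjusted p = 0.063).

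Fzd6, a receptor of planar polarity, overlapped between the groups. Controls held 50.1, 42, 37.8, 51.8 and 50.1 CPM, and the knockout-labelled libraries held 33.4, 34.3, 39.6, 40.6 and 39.5 CPM; only control 3 lay within the lower group. The fall of 1.24-fold (log2 fold change -0.31 ± 0.09 SE, edgeR adjusted p = 0.038) lost its call when any of controls 1, 4 and 5 or of knockout-labelled libraries 1 and 2 was left out (adjusted p = 0.078 to 0.097). It was also lost on log2(TPM + 1) with limma (adjusted p = 0.22). Fzd1, Fzd2, Fzd3 and Fzd5 did not pass, with log2 fold changes from -0.09 to 0.48 and adjusted p-values of 0.27 to 0.63. The summed Frizzled TPM was 116 ± 9.43 in controls and 130 ± 5.92 in the knockout-labelled libraries (SD, n = 5 each), with overlap.

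The co-receptor Lrp5 fell clearly while Lrp6 did not pass. Lrp5 (chromosome 19 from 3584828 to 3686564, minus strand, GRCm38) was at 526, 547, 479, 575 and 579 CPM in the controls and at 342, 345, 367, 334 and 410 CPM in the knockout-labelled libraries. The lowest control lay above the highest knockout-labelled library, and the fall was 1.5-fold (log2 fold change -0.59 ± 0.07 SE, edgeR adjusted p = 9.1e-05). Measured in TPM, Lrp5 went from 206 ± 17.1 to 145 ± 14.9 (SD, n = 5 each), which left it the second most abundant of the 58 genes after Ctnnb1 in both groups. Lrp6 was at 180, 159, 141, 181 and 187 CPM in the controls and at 149, 143, 171, 137 and 149 CPM in the knockout-labelled libraries. These values overlapped (log2 fold change -0.18 ± 0.08 SE, edgeR adjusted p = 0.16), and without control 3, the lowest, the adjusted p was 0.037. The ratio of Lrp5 to Lrp6 in TPM was 5.85 ± 0.614 in controls and 4.35 ± 0.429 in the knockout-labelled libraries (SD, n = 5 each). The groups overlapped in this ratio, with knockout-labelled library 5 (4.94) above control 1 (4.87).

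**Figure D3:**
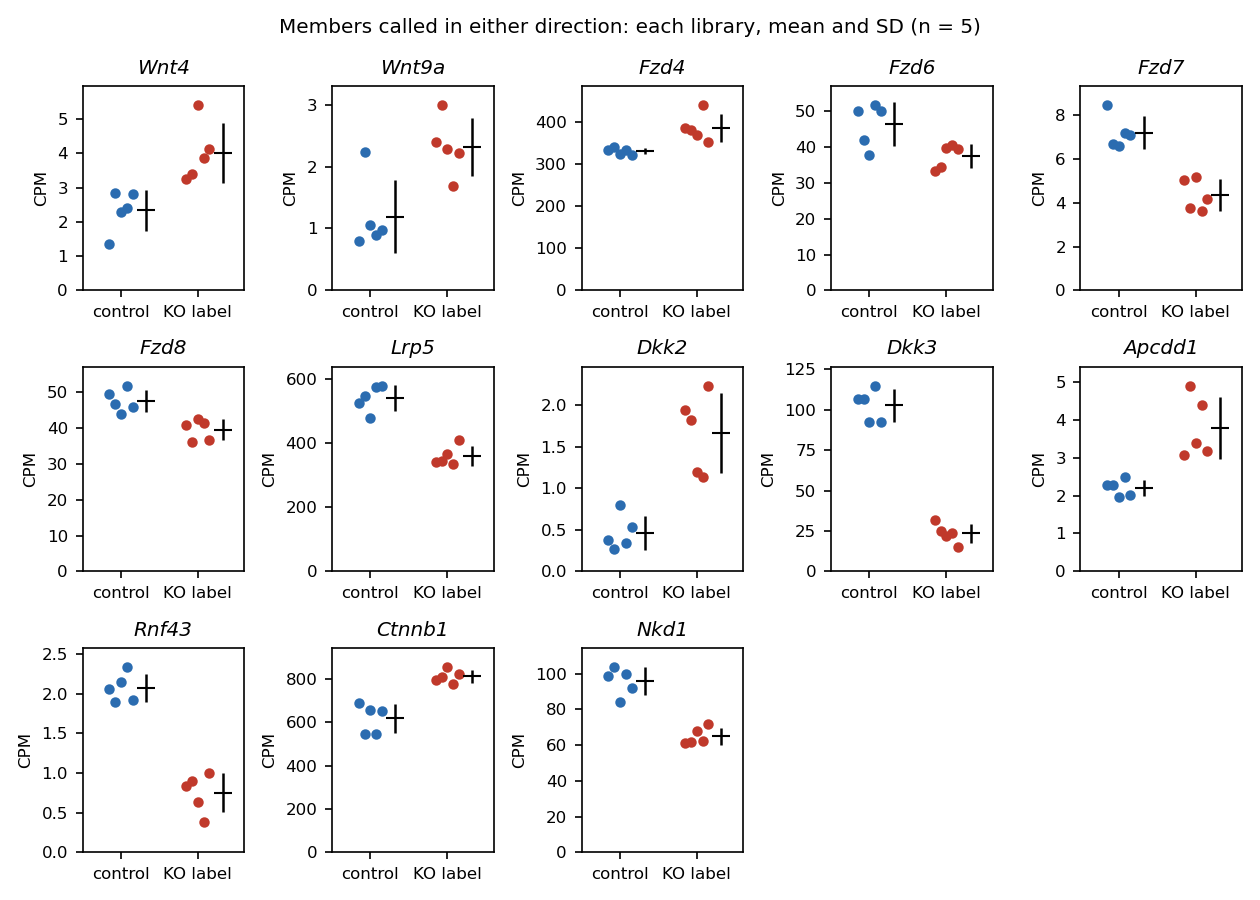
CPM in each library for the 13 Wnt pathway genes that differed between the groups (points, 5 per group; the cross marks the mean and the vertical line the SD; each axis starts at 0). The groups overlap for Wnt9a and Fzd6 and are apart for the other 11.

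Among the 35 tested genes, the largest changes in both directions were in secreted antagonists. Dkk3, a member of the Dickkopf family whose effect on Wnt signalling is debated, was at 107, 107, 92.2, 115 and 92.6 CPM in the controls. The knockout-labelled libraries held 31.9, 24.8, 22.1, 23.5 and 15.1 CPM, all far below. Dkk3 (chromosome 7 from 112116017 to 112159057, minus strand, GRCm38) fell 4.37-fold (log2 fold change -2.13 ± 0.17 SE, edgeR adjusted p = 1.2e-05). The mean TPM of Dkk3 went from 49.6 ± 5.07 to 12.1 ± 2.97 (SD, n = 5 each). Dkk3 made up 93.5% ± 1.15 of the summed TPM of the 10 secreted antagonists in controls and 77.4% ± 7.28 in the knockout-labelled libraries, and the sum went from 53 ± 5.04 to 15.5 ± 2.84 TPM (SD, n = 5 each).

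Dkk2, a Dickkopf protein that binds LRP6, moved the other way at a far lower level. Its values were 0.382, 0.272, 0.798, 0.338 and 0.531 CPM in the controls and 1.94, 1.83, 1.2, 1.14 and 2.24 CPM in the knockout-labelled libraries, without overlap. Dkk2 (chromosome 3 from 132085292 to 132180304, plus strand, GRCm38) rose 3.6-fold (log2 fold change 1.85 ± 0.31 SE, edgeR adjusted p = 0.0011). Its mean TPM was 0.202 in controls and 0.781 in the knockout-labelled libraries, so in both groups it stayed well under Dkk3.

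Apcdd1, a membrane protein that binds Wnt and LRP5 and blocks them, stood at 2.27, 2.28, 1.96, 2.49 and 2.01 CPM in the controls and at 3.06, 4.9, 3.38, 4.39 and 3.18 CPM in the knockout-labelled libraries. Every knockout-labelled library was above every control, and the rise was 1.72-fold (log2 fold change 0.78 ± 0.17 SE, edgeR adjusted p = 0.0056). Notum, an enzyme that takes the lipid off Wnt proteins, was at 0.378, 1.41, 1.31, 1.67 and 0.462 CPM in the controls and at 0.602, 0.247, 0.63, 0.294 and 0.372 CPM in the knockout-labelled libraries. Controls 2, 3 and 4 were the high ones and controls 1 and 5 lay among the other group (log2 fold change -1.28 ± 0.44 SE, edgeR adjusted p = 0.06). DESeq2 gave Notum an adjusted p of 0.041, and with a hepatocyte score as covariate its log2 fold change was -0.59 (adjusted p = 0.48). Hepatocyte marker sums were likewise lowest among the controls in controls 1 and 5, at 982 and 693 CPM. The knockout-labelled libraries did not follow that order. Their library 2 had the highest hepatocyte sum (1520 CPM) and the lowest Notum, and library 3 the highest Notum at a sum of 839 CPM. The part of hepatocyte RNA in the Notum values was not tested beyond that covariate fit. Sfrp1, which traps Wnt proteins, had a log2 fold change of -0.55 ± 0.28 SE (adjusted p = 0.19), and Sfrp5 one of 0.03 ± 0.39 SE (adjusted p = 0.97).

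The R-spondin system was represented by few transcripts once Rspo3 was left aside. Rspo1, another ligand of the LGR receptors, was at 2.23, 3.3, 1.05, 1.71 and 2.43 CPM in the controls and at 1.55, 2.92, 2.5, 1.51 and 6.15 CPM in the knockout-labelled libraries. The groups overlapped and knockout-labelled library 5, which had the most mesothelial marker RNA, was the highest (log2 fold change 0.45 ± 0.41 SE, edgeR adjusted p = 0.51). Rspo3, the main R-spondin of the central vein, was at 227 to 255 CPM in controls and 4.98 to 9.77 CPM in the knockout-labelled libraries. Its share of the summed R-spondin TPM was 98.2% ± 1.03 in controls and 53.3% ± 18.7 in the knockout-labelled libraries (SD, n = 5 each). The latter ran from 26.1%, in library 5, to 70.3%. These shares also depend on the transcript length assigned to Rspo1. Its 1.51 CPM in knockout-labelled library 4 stood for 2.55 TPM, and its 1.71 CPM in control 4 for 1.45 TPM. Lgr4, the one LGR receptor that could be tested, had means of 5.39 and 5.35 CPM (log2 fold change -0.01 ± 0.14 SE, adjusted p = 0.98).

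Rnf43, a membrane ubiquitin ligase that removes Frizzled receptors and is itself a Wnt target, fell. Its level was 2.06, 1.89, 2.14, 2.34 and 1.92 CPM in the controls and 0.839, 0.904, 0.635, 0.378 and 1 CPM in the knockout-labelled libraries, without overlap. The fall was 2.74-fold (log2 fold change -1.45 ± 0.23 SE, edgeR adjusted p = 0.00086). By contrast, the groups overlapped in the deposited TPM, at 0.86 to 2.43 in controls and 0.19 to 1.5 in the knockout-labelled libraries. The same CPM corresponded to a different TPM in control 4 and knockout-labelled library 1: the ratio of CPM to TPM was 0.963 and 0.561 there and 1.64 to 2.49 elsewhere, so the transcript length assigned to the gene differed in those 2 libraries. With limma on log2(TPM + 1) the log2 difference was -0.49 (adjusted p = 0.14). Znrf3, its close relative, did not pass (means of 0.828 and 0.935 CPM, log2 fold change 0.17 ± 0.29 SE, adjusted p = 0.74).

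Ctnnb1, the gene of beta-catenin, which also holds cells together at cadherin junctions, was the most abundant of the 58. It was at 689, 546, 655, 546 and 652 CPM in the controls and at 792, 809, 856, 778 and 823 CPM in the knockout-labelled libraries. No values overlapped, and the rise was 1.31-fold (log2 fold change 0.39 ± 0.07 SE, edgeR adjusted p = 0.0022), with TPM means of 387 ± 51.5 and 523 ± 38.1 (SD, n = 5 each).

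Nkd1, an intracellular brake that binds Dishevelled and is a common Wnt target, fell. Controls held 98.7, 104, 84, 100 and 92 CPM and the knockout-labelled libraries 61.2, 61.8, 67.8, 62.1 and 71.9 CPM. All of the latter lay below all controls, a 1.47-fold fall (log2 fold change -0.56 ± 0.07 SE, edgeR adjusted p = 9.1e-05). Nkd1 lies on chromosome 8 from 88521354 to 88594884 (plus strand, GRCm38). Its relative Nkd2 was at 17.3, 13.3, 12.6, 13.5 and 13 CPM in the controls and at 10.5, 14.7, 9.65, 12.8 and 13.1 CPM in the knockout-labelled libraries, which overlapped (log2 fold change -0.2 ± 0.12 SE, edgeR adjusted p = 0.31).

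Neither Axin gene, the scaffolds of the beta-catenin destruction complex, passed. Axin1 was at 36.5, 38, 36.9, 39.7 and 37.1 CPM in the controls and at 39.2, 40.5, 36.2, 38.3 and 40.7 CPM in the knockout-labelled libraries with overlap (log2 fold change 0.05 ± 0.05 SE, edgeR adjusted p = 0.55). Axin2, the most widely used Wnt target, was at 2.73, 2.87, 2.18, 3.19 and 2.56 CPM in the controls and at 1.8, 2.14, 2.28, 2.19 and 2.43 CPM in the knockout-labelled libraries. Control 3 lay within the lower group (log2 fold change -0.32 ± 0.15 SE, edgeR adjusted p = 0.17).

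The TCF/LEF factors were held almost wholly by Tcf7l1, usually a repressor of Wnt targets, which made up 88.1% ± 1.12 of their summed TPM in controls and 88.6% ± 1.07 in the knockout-labelled libraries (SD, n = 5 each). Tcf7l1 was at 144, 159, 149, 144 and 116 CPM in the controls and at 137, 153, 141, 131 and 132 CPM in the knockout-labelled libraries (log2 fold change -0.04 ± 0.08 SE, edgeR adjusted p = 0.79). Tcf7l2 was at 14.6, 19, 16.5, 15.6 and 15.3 CPM in the controls and at 13.3, 15.3, 15.5, 17 and 14 CPM in the knockout-labelled libraries (log2 fold change -0.11 ± 0.09 SE, edgeR adjusted p = 0.43). Both genes overlapped between the groups. Lef1 (log2 fold change -0.4 ± 0.36 SE, adjusted p = 0.5) and Tcf7 (0.11 ± 0.16 SE, adjusted p = 0.67), which are also expressed in T cells, did not pass. The 8 T and NK cell markers summed to 19 to 26 CPM in controls and 15.4 to 35.3 CPM in the knockout-labelled libraries. Singly they moved in both directions. Cd3d, Cd4, Cd3e and Cd3g had lower means under the knockout label. Cd8a (log2 fold change 0.11, edgeR adjusted p = 0.87), Nkg7, Ncr1 and Klrb1c had higher means and did not pass. Cd3d had means of 1.35 ± 0.38 CPM in controls and 0.642 ± 0.227 CPM in the knockout-labelled libraries (SD, n = 5 per group), and it fell at an edgeR adjusted p of 0.02. Cd4 fell as well, with means of 2.05 and 1.08 CPM (adjusted p = 0.024). Cd3e had means of 1.64 and 0.919 CPM (adjusted p = 0.11) and Cd3g of 3.68 and 2.13 CPM (adjusted p = 0.13), and the median log2 fold change of the 8 was -0.34. With the score of this list as a covariate the adjusted p was 0.74 for Lef1 and 0.41 for Tcf7.

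**Figure D4:**
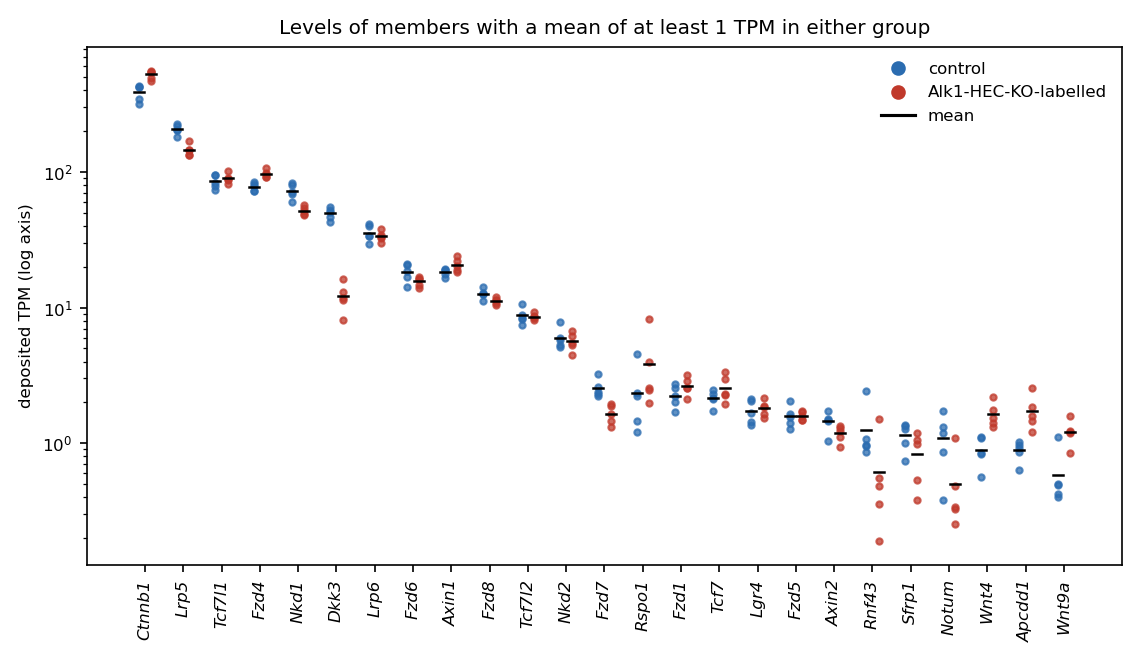
Deposited TPM (log axis) of the Wnt pathway genes with a mean of at least 1 TPM in either group, ordered by control mean; points are libraries, blue for controls and red for the Alk1-HEC-KO label, and bars are means. Ctnnb1 leads in both groups, and Dkk3 shows the widest gap, 49.6 against 12.1 TPM.

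Levels of the 58 genes spanned a wide range in TPM, and 12 had a mean of at least 5 TPM in either group. In controls Ctnnb1 (387) and Lrp5 (206) were followed by Tcf7l1 (85), Fzd4 (77.9), Nkd1 (72.1), Dkk3 (49.6) and Lrp6 (35.6). In the knockout-labelled libraries the order after Lrp5 (145) was Fzd4 (96.9), Tcf7l1 (89.7), Nkd1 (51.7), Lrp6 (33.5), Axin1 (20.7), Fzd6 (15.6) and Dkk3 (12.1). Tcf7l1 and Fzd4 stand next to each other in both groups with ranges that overlap, so their order is not resolved. The same holds in controls for Nkd1 (59.5 to 82.2 TPM) beside Fzd4 and Tcf7l1. It also holds in the knockout-labelled libraries for Fzd6 (14 to 16.9 TPM) and Dkk3 (8.09 to 16.3 TPM). At the other end, 10 of the 35 tested genes had means under 1 TPM in both groups.

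The 23 genes with too few counts to be tested were 11 ligands, the receptors Fzd9 and Fzd10, the antagonists Dkk1, Dkk4, Sfrp2, Sfrp4 and Wif1, Rspo2 and Rspo4, the R-spondin receptors Lgr5 and Lgr6, and Sp5. Wnt1, Wnt3, Wnt3a, Wnt8a and Rspo4 had a count of 0 in all 10 libraries, which allows up to 3 counts, or 0.123 to 0.135 CPM, in a library (counting error only). The other 18, among them the ligands Wnt6, Wnt7a, Wnt8b, Wnt10a, Wnt10b, Wnt11 and Wnt16, had at most 20 counts in any library, the highest being Sfrp2. Sp5 had 6, 8, 5, 3 and 1 counts in the controls and 0, 1, 0, 1 and 0 counts in the knockout-labelled libraries, so control 5 equalled the highest of the other group. Without the filter on low counts Sp5 passed (log2 fold change -3.22, edgeR adjusted p = 0.013), a value that at such counts depends on how zeros are treated. Lgr5 had 26 estimated counts over the 5 controls and 10.1 over the 5 knockout-labelled libraries, and Lgr6 had 34.4 and 18.

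Other genes of Wnt signalling came from a wider list, of which 70 genes were tested, 15 were higher and 8 lower. These are 32.9% of the 70, beside 19.7% of all genes tested (10.6% higher and 9.08% lower), and the median log2 fold change was 0.07, beside 0. The groups that follow hold few genes each, and their counts are read against the same shares. Of 3 genes for Wnt secretion, Porcn and Wls fell and 1 did not pass. Of 16 genes of Dishevelled and the destruction complex, Dvl1 and Tnks2 rose, Btrc fell and 13 did not pass. Of 11 other receptors and co-receptors, Ror1 and Lypd6 rose, Reck fell and 8 did not pass. Of 8 other modulators of Wnt signalling, Trabd2b rose, Frzb, Cthrc1 and Igfbp4 fell and 4 did not pass. Of 15 partners of beta-catenin in the nucleus, Pygo1, Tle3, Ctbp2 and Ctnnbip1 rose and 11 did not pass. Of 10 planar polarity genes, Celsr1 and Prickle3 rose and 8 did not pass. Of 7 further genes known as targets, Ccnd1, Myc, Tnfrsf19 and Sox9 rose, Tbx3 fell and 2 did not pass.

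Ctnnbip1, which encodes ICAT, an inhibitor of beta-catenin binding to TCF, had the largest difference of that list. It was at 4.08, 3.13, 4.14, 3.87 and 5.12 CPM in the controls and at 22.2, 23.9, 20.1, 29.9 and 22.2 CPM in the knockout-labelled libraries. The groups lay far apart, at a 5.81-fold rise (log2 fold change 2.54 ± 0.14 SE, edgeR adjusted p = 1.3e-07). Myc, a growth regulator, rose from 7.74 ± 1.36 to 19.2 ± 4.4 CPM (SD, n = 5 each; log2 fold change 1.31 ± 0.17 SE, edgeR adjusted p = 0.00022). Frzb, a secreted relative of the Sfrp proteins, fell from 2.91 ± 0.575 to 1.17 ± 0.407 CPM (SD, n = 5 each; log2 fold change -1.31 ± 0.25 SE, edgeR adjusted p = 0.0028).

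Sox9, which bile duct cells also express, rose from a mean of 3.42 to 7.29 CPM (log2 fold change 1.09 ± 0.17 SE, edgeR adjusted p = 0.00065). It is itself 1 of the 7 bile duct markers summed above, so those higher sums are not separate from it. The part of bile duct cells in its rise was not tested. The rises of Trabd2b (log2 fold change 1.19, edgeR adjusted p = 0.0099), Lypd6 (1.15, 0.0051), Tnfrsf19 (1.13, 0.0054), Pygo1 (1.06, 0.027), Celsr1 (0.93, 0.004) and Ror1 (0.79, 0.048) were of like size. The falls of Cthrc1 (log2 fold change -1.13, edgeR adjusted p = 0.0081) and Tbx3 (-1.93, 0.043) completed the 12 largest. Tbx3, also a pericentral hepatocyte gene, lost its call with a hepatocyte score as covariate (log2 fold change -1.05, adjusted p = 0.25), as did Pygo1 (adjusted p = 0.16) and Ror1 (adjusted p = 0.12). Leaving out single libraries also ended these calls: for Tbx3 controls 2 and 4 and knockout-labelled libraries 2 to 5 (each by itself, adjusted p = 0.061 to 0.1), for Pygo1 controls 1, 2, 4 and 5 and knockout-labelled libraries 3 and 5 (0.051 to 0.076), and for Ror1 all controls but 2 and all knockout-labelled libraries but 4 (0.067 to 0.11). With the pericentral score as covariate, Ctnnbip1 (adjusted p = 0.0011) and Frzb (adjusted p = 0.03) kept their calls and the other 10 did not.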

How the data were processed

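The members and all gene lists were chosen with earlier results of these data known. The submitters' processing notes name Trim Galore 0.6.4, kallisto 0.4.6 and GRCm38.p6. The authors deposited expected counts (estimated counts per gene, not always whole) and TPM for each library. Annotation release, strand setting and the step from transcripts to genes were not given in the sources used here. Of 55385 identifiers, 55144 matched GENCODE M21, which gave symbols and coordinates, and 56 of the 58 genes matched in version as well.

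Estimated counts were rounded and tested with edgeR 4.0.16 (R 4.3.3): filterByExpr with a minimum count of 10, TMM factors (0.943 to 1.04), quasi-likelihood test on genotype, Benjamini-Hochberg adjustment over all 15043 genes tested, threshold 0.05. Every adjusted p not otherwise named is from this test. Libraries of a group differed by more than sampling noise (chi-square per degree of freedom 11.41 to 32.6). CPM used TMM-scaled totals; sums and levels between genes used deposited TPM. Depth was nearly equal, but counting error depends on a gene's own counts. It weighs on tested genes of few counts, such as Rnf43 (9 to 52 counts in a library) and Wnt5b (5 to 13). Alternatives were DESeq2 1.42.0, limma 3.58.1 on log2(TPM + 1) and log2(TPM + 0.1), DESeq2 size factors, no filter and a stricter one (mean of 1 CPM), the replicate block, marker scores as covariates and each library left out. The procedure was tested on simulated data. Named with every library's value were the 13 genes that differed, those with a mean of at least 5 TPM and some others chosen after their values were seen (Notum, Axin2, Rspo1, Sp5, Ctnnbip1); of the wider list, the 12 largest differences. The GGCGCC letters were added later to the TCF/LEF search, and the printed windows were chosen for their matches.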

Additional observations from a re-analysis of the deposited data

Results flagged for a closer look

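In 3 of 102 pairs of a gene and a group, 1 of the 5 libraries lay far from the others by Dixon's ratio of gap to range (critical value 0.71), which chance passes in about 1 in 20. Wnt9a was at 2.23 CPM in control 2 against 0.799 to 1.05 CPM in the other controls (ratio 0.827). Nkd2 was at 17.3 CPM in control 1 against 12.6 to 13.5 CPM in the others (ratio 0.826). Myc was at 5.4 CPM in control 4 against 7.82 to 8.72 CPM in the others (ratio 0.728).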

How the results depend on the processing

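Counts of called genes kept within 1.5 times of the values reported, 2959 over all genes, 6 of the 58 higher and 7 lower, in all settings but these. With limma on log2(TPM + 1) or log2(TPM + 0.1), 4 of the 58 were lower, and of 2483 and 2478 genes called 73.3% and 73% were higher, beside 53.8% in the edgeR fit. The median log2 difference over the tested genes was 0.081 and 0.098 in these limma fits and 7.8e-05 in the edgeR fit. Small changes in TPM are read against that median, both falls (Fzd6 and Fzd8) and rises (Fzd4 and the summed Frizzled TPM). With the pericentral hepatocyte score as covariate, chosen after seeing the data, 338 genes were called, 0 of the 58 higher and 1 lower (Dkk3), and Tbx3 reversed to a log2 fold change of 0.29 (adjusted p = 0.95); that score does not overlap between the groups, and the cause was not tested. With each library left out in turn, 2315 to 2870 genes were called, 4 to 6 of the 58 higher and 6 to 8 lower, and the log2 fold change of Acvrl1 was 0.93 to 0.99. Of the 13 called genes, 10 stayed called in each of these fits; Wnt4, Wnt9a and Fzd6 did not. No label says that the replicate numbers in the titles pair the libraries, and the reported fit did not use them. Correlations of same-numbered deviations were -0.196, 0.35, 0.0147, 0.108 and 0.284, and 1 of 5 controls correlated best with its own number. Correlations of so few libraries cannot decide whether a number marks a shared batch. With the replicate number as a block 2567 genes were called, and 6 of the 58 were higher and 6 lower (Fzd6 adjusted p = 0.052). Depth limits the 23 untested genes, for which neither a change nor its absence can be read from a few counts per library.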
